A study of Mus musculus with 2 samples.

Results

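The ATF4 axis was followed through 10 of its regulators, chosen by name: the transcription factors Atf4, Cebpg, Atf5, Atf3 and Ddit3 (CHOP), the feedback regulators Trib3, Ppp1r15a (GADD34) and Nupr1, and the mTORC1 restrainers Sesn2 and Ddit4 (REDD1). The choice was made with earlier results of these data known. All 10 symbols were among the 32285 gene rows of the count tables. They took up 11 rows, since Ddit3 has a second, overlapping row (ENSMUSG00000116429) that held 0 UMIs in both libraries, a count that allows up to 3 per library, and 10 rows held UMIs. That second row lies on the same strand as the first and within its span. Reads shared by both rows may have been dropped in counting, which was not tested, so Ddit3 levels may leave out part of the gene. The cells were myeloid-derived suppressor cells (MDSC), grown for 4 days in GM-CSF plus IL-6 (50 ng/mL of each cytokine) out of marrow taken from 10-week-old female C57BL/6 mice. One culture held 1.5 µM of the BRAF inhibitor dabrafenib (DAB) and the other its vehicle DMSO, so both groups share the strain, the cytokines and the time, and each is 1 single-cell library of the 10x 5′ v2 chemistry. How many mice gave each library is not stated in the sources used here. With 1 library per condition, drug and library cannot be told apart, no test between conditions is possible, and every interval below is a 95% interval that covers counting error only.

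The axis is the gene expression side of the integrated stress response. Kinases that sense amino acid shortage (GCN2), unfolded protein in the endoplasmic reticulum (PERK), heme loss or double-stranded RNA phosphorylate the translation factor eIF2α. Bulk translation then slows, while ATF4 mRNA is translated better because of short reading frames ahead of its coding sequence. ATF4 pairs with C/EBP proteins such as CEBPG, switches on genes for amino acid synthesis, amino acid import and tRNA charging, and also switches on regulators that feed back on the response. The study asked how dabrafenib, through GCN2, affects MDSC development, and the comparison below gives the mRNA side of that question only: translation and phosphorylation were not measured in these libraries.

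The DMSO library kept 9032 cells with a median of 7486.5 UMIs and the DAB library 10476 cells with a median of 9368 UMIs, from 9855 and 11631 barcodes. The libraries shared 119 barcode sequences among their cells. The genes that define the labelled cells were present but differed in direction. The share of cells with a UMI of S100a8 was 82.9% in DMSO and 91.4% in DAB, and that of Itgam 81.6% and 84.1%. It was also higher in DAB for S100a9 (77.7% and 89.5%), Ly6c2 (44.2% and 50.6%) and Csf1r (53.2% and 56.7%). The share was lower in DAB for Nos2 (25.8% and 7.13%), Ly6g (22.0% and 16.2%), Cd84 (55.9% and 51.0%) and Arg1 (52.4% and 49.2%). Cd3e, a T cell gene, was at 0.22 and 0.31 CPM (the UMIs of a gene scaled to 1000000 UMIs of the library). The shares above were not thinned to an equal depth, and DAB cells had more UMIs. In CPM, S100a9 (20900 in DMSO and 17300 in DAB) and Csf1r (147 and 126) were lower in DAB. S100a8 was at 18100 and 18000 CPM, while Itgam (419 and 537 CPM) and Ly6c2 (349 and 621 CPM) were higher in DAB. Cells were grouped into 27 clusters without use of the members or of the other gene lists, and 13 clusters took a name from marker genes. The mix of cells differed between the libraries, with chemokine-high granulocyte-like cells at 4.28% of DMSO and 17.9% of DAB cells, mature PMN-like cells at 6.40% and 14.9%, intermediate granulocyte-like cells at 20.1% and 8.45%, and immature monocyte-like cells at 13.8% and 5.21%. Ratios over all cells therefore stand below beside ratios within classes of cells.

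Over all cells, 5 of the 10 members were higher in DAB (Atf4, Atf5, Ddit3, Trib3 and Sesn2), 2 were lower (Atf3 and Ddit4), and 3 were not called (Cebpg, Nupr1 and Ppp1r15a). Here a gene was called when its log2 ratio of DAB over DMSO was at least 0.5 in size and its counting interval left out 0, among genes that reached 20 CPM in either library. By the same rule 11.6% of the 5895 genes that passed were higher in DAB and 11.2% were lower. The median log2 ratio was 0.58 over the members and 0.0098 over all those genes. All 10 members passed the level of 20 CPM, although Trib3 passed only through the DAB library. With the mix of clusters set equal in both libraries, the log2 ratios of the 5 higher members lay between 0.59 for Sesn2 and 2.81 for Atf5, and those of Atf3 and Ddit4 were -0.99 and -0.58.

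**Figure D1:**
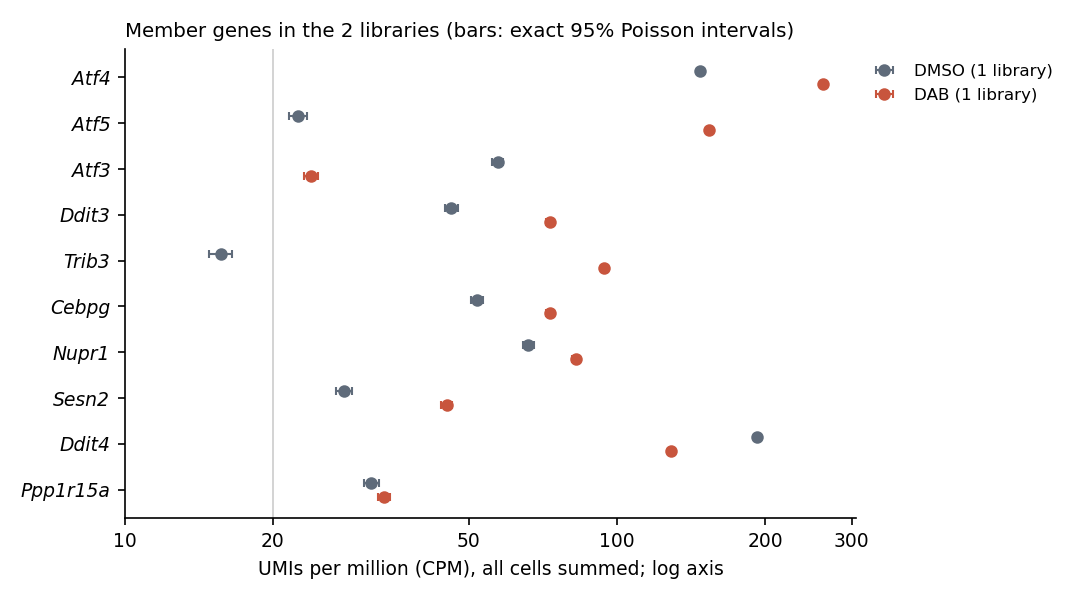
Level of each member in the 2 libraries, in CPM on a log axis with all cells of a library summed. Bars are exact Poisson intervals and the grey line marks 20 CPM. Atf5 and Trib3 show the widest gaps, from 22.5 to 154 CPM and from 15.7 to 94.2 CPM, while Atf3 and Ddit4 lie lower in DAB.

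Atf4 (chromosome 15, 80255184-80257541, plus strand, GRCm38), the central factor of the axis, had 13668 UMIs in DMSO and 36692 in DAB. Its level was 148 CPM (145 to 150) against 263 CPM (260 to 265), a 1.78-fold higher level in DAB with a log2 ratio of 0.83 (0.80 to 0.86). The share of cells with a UMI of Atf4 was 33.4% in DMSO and 50.7% in DAB once each cell had been thinned to 3000 UMIs. Its partner Cebpg (chromosome 7, 35046422-35056573, minus strand) was at 52.0 CPM in DMSO and 73.2 CPM in DAB. That log2 ratio of 0.49 (0.44 to 0.54) sat just under the limit for a call.

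Atf5 (chromosome 7, 44812256-44816658, minus strand), a relative of ATF4 known for its role in the mitochondrial unfolded protein response, showed the widest ratio of the members. Its level was 22.5 CPM (21.6 to 23.5) in DMSO and 154 CPM (152 to 156) in DAB, 6.84-fold higher, with a log2 ratio of 2.77 (2.71 to 2.84). Of the 5895 genes that passed, 99.7% had a lower ratio. Atf5 overlaps Nup62 and Il4i1, both on the opposite strand. Nup62 had 5266 UMIs in DMSO and 10117 in DAB, and Il4i1 had 6654 and 4563, counts that are not scaled to the size of the library. The study counted reads with the Cell Ranger setting for 5′ libraries. Whether reads of these genes reached the Atf5 count was not tested.

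Ddit3 (chromosome 10, 127290774-127296288, plus strand), which encodes CHOP, a C/EBP relative tied to cell death in long-lasting stress, was at 46.0 CPM (44.7 to 47.5) in DMSO and 73.0 CPM (71.6 to 74.4) in DAB. The log2 ratio was 0.66 (0.61 to 0.72), or 1.59-fold. Its end overlaps Mars, a tRNA synthetase gene on the opposite strand that is itself an ATF4 target. The stretch they share, 127296221-127296288, is at the 3′ end of both genes, and these libraries are of 5′ chemistry. Mars had 2048 UMIs in DMSO and 6717 in DAB (log2 ratio 1.12), a wider gap than that of Ddit3. Whether reads of Mars reached the Ddit3 count was not tested. Atf3 (chromosome 1, 191170296-191218039, minus strand), a factor induced by ATF4 but also by many other signals and known to restrain inflammatory genes in myeloid cells, went the other way. It had 57.2 CPM (55.7 to 58.8) in DMSO and 23.9 CPM (23.1 to 24.7) in DAB, a 2.40-fold lower level with a log2 ratio of -1.26 (-1.32 to -1.20). Thus the 5 transcription factors did not move as a block: 3 were called higher, 1 lower and 1 was not called.

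The promoter sequences of the members, from RefSeq on GRCm38.p6, were searched for TGATGNAA, the composite letters that ATF4 and a C/EBP protein can bind together, on both strands in windows from 250 bases before to 50 bases after each start. These letters were in the windows of 3 of the 10 members (Atf3, Nupr1 and Trib3), of 12 of 32 ATF4 target genes with a window, and in 3.97% of 32851 promoters. The cyclic AMP response element TGACGTCA, which ATF and CREB family members can bind and which overlaps none of the matches above, was in the window of Ppp1r15a and in 1.79% of all promoters. The endoplasmic reticulum stress element (CCAAT, 9 bases, CCACG) was in none of the members' windows and in 0.119% of all promoters. The 4 windows with a match are shown to let the matches be read beside the measured ratios, with the matched letters in capitals. The 250 bases before the RefSeq start are given for Atf3 (chr1:191183334-191183583, minus strand, match at bases -110 to -103), Nupr1 (chr7:126625471-126625720, minus strand, -110 to -103) and Ppp1r15a (chr7:45526269-45526518, minus strand, -12 to -5), and 30 bases for Trib3 (chr2:152344028-152344057, minus strand, +15 to +22). In Atf3, Nupr1 and Trib3 the composite letters read on the strand opposite to the one printed.
Atf3: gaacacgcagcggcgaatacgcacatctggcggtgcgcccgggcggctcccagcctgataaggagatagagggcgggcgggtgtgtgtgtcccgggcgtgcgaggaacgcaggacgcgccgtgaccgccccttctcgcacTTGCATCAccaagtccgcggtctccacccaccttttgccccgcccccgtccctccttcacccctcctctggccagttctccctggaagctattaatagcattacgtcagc
Nupr1: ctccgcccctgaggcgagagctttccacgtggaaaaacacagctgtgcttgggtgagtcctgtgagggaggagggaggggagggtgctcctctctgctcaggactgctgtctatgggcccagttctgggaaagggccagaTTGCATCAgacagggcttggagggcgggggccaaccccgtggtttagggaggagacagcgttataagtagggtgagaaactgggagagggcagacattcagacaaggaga
Trib3: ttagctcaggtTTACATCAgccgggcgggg
Ppp1r15a: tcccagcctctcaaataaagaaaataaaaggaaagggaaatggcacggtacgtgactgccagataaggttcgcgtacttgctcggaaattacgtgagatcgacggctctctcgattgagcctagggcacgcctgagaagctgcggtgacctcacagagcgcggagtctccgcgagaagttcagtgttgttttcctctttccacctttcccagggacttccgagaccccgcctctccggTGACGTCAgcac
The members that hold a match did not share a direction: over all cells Trib3 was higher in DAB, Atf3 was lower, and Nupr1 and Ppp1r15a were not called. A match describes the letters in this window and does not show binding.

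Among the feedback regulators, Trib3 (chromosome 2, 152337422-152344032, minus strand), a pseudokinase that binds ATF4 and limits its activity, was close to Atf5 in its ratio. It had 15.7 CPM (14.9 to 16.5) in DMSO and 94.2 CPM (92.6 to 95.9) in DAB, 6.02-fold higher, with a log2 ratio of 2.59 (2.51 to 2.67). Ppp1r15a (chromosome 7, 45522916-45526268, minus strand), the inducible subunit that brings a phosphatase to eIF2α and so ends the response, was at 31.7 CPM in DMSO and 33.6 CPM in DAB. Its log2 ratio was 0.08 (0.02 to 0.15), so the 2 feedback genes differed widely: one had a clear gap between the libraries and the other did not. Nupr1 (chromosome 7, 126623249-126630861, minus strand), a small chromatin-associated stress protein, lay between them at 66.1 CPM in DMSO and 82.6 CPM in DAB, with a log2 ratio of 0.32 (0.28 to 0.37).

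The restrainers of mTORC1 also split. Sesn2 (chromosome 4, 132492032-132510501, minus strand), a leucine-binding protein that holds back mTORC1 when amino acids are short, was at 27.9 CPM (26.8 to 29.0) in DMSO and 45.1 CPM (44.0 to 46.2) in DAB. The log2 ratio was 0.69 (0.63 to 0.76), or 1.62-fold. Ddit4 (chromosome 10, 59949669-59951834, minus strand), which restrains mTORC1 through the TSC complex and also answers to hypoxia and glucocorticoids, had 193 CPM (190 to 195) in DMSO and 129 CPM (127 to 131) in DAB. It was lower in DAB by a log2 ratio of -0.58 (-0.61 to -0.55).

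Within classes of cells, the 8 named classes with at least 100 cells in each library fell into 3 patterns. Granulocyte-like classes and immature monocyte-like cells had more members higher than lower, mature monocyte-like, activated dendritic cell-like and basophil or mast cell-like cells were split, and B cell-like cells had no member called higher. In immature monocyte-like cells (1249 DMSO and 546 DAB cells, led by Mmp12, Nos2, Lpl and Arg1) every member was called, 8 higher and 2 lower, where 10.7% of genes were higher and 14.8% lower. Of these calls, Ppp1r15a was lost at resolutions of 0.5 and 1.5 (0.16 and 0.37), and Cebpg (0.23) and Atf3 without alignment of the libraries. In mature PMN-like cells 6 members were higher and 1 was lower (11.7% and 8.17% of genes), and in chemokine-high granulocyte-like cells also 6 and 1 (8.20% and 12.1%). In intermediate granulocyte-like cells 4 were higher and 1 was lower, against 21.8% and 13.2% of genes. In mature monocyte-like cells 3 were higher and 3 lower (15.7% and 18.1% of genes). Of the 8 members that passed in activated dendritic cell-like cells 2 were higher and 3 lower (12.4% and 16.5% of genes), and of the 10 in basophil or mast cell-like cells 2 were higher and 4 lower (13% and 24.7%). Only 5 members passed in B cell-like cells, with 0 higher and 1 lower (17.8% and 10.3% of genes). A member under 20 CPM in DMSO could pass through its DAB level alone, which favours a higher call. This was so for Trib3 in intermediate granulocyte-like, mature PMN-like and immature monocyte-like cells, and for Sesn2 in the last of these. It was also so for Atf5 in intermediate granulocyte-like, mature monocyte-like, activated dendritic cell-like and basophil or mast cell-like cells. A member under 20 CPM in DAB could pass through its DMSO level alone, which favours a lower call. Atf3 did so in mature PMN-like, mature monocyte-like, activated dendritic cell-like and basophil or mast cell-like cells.

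**Figure D2:**
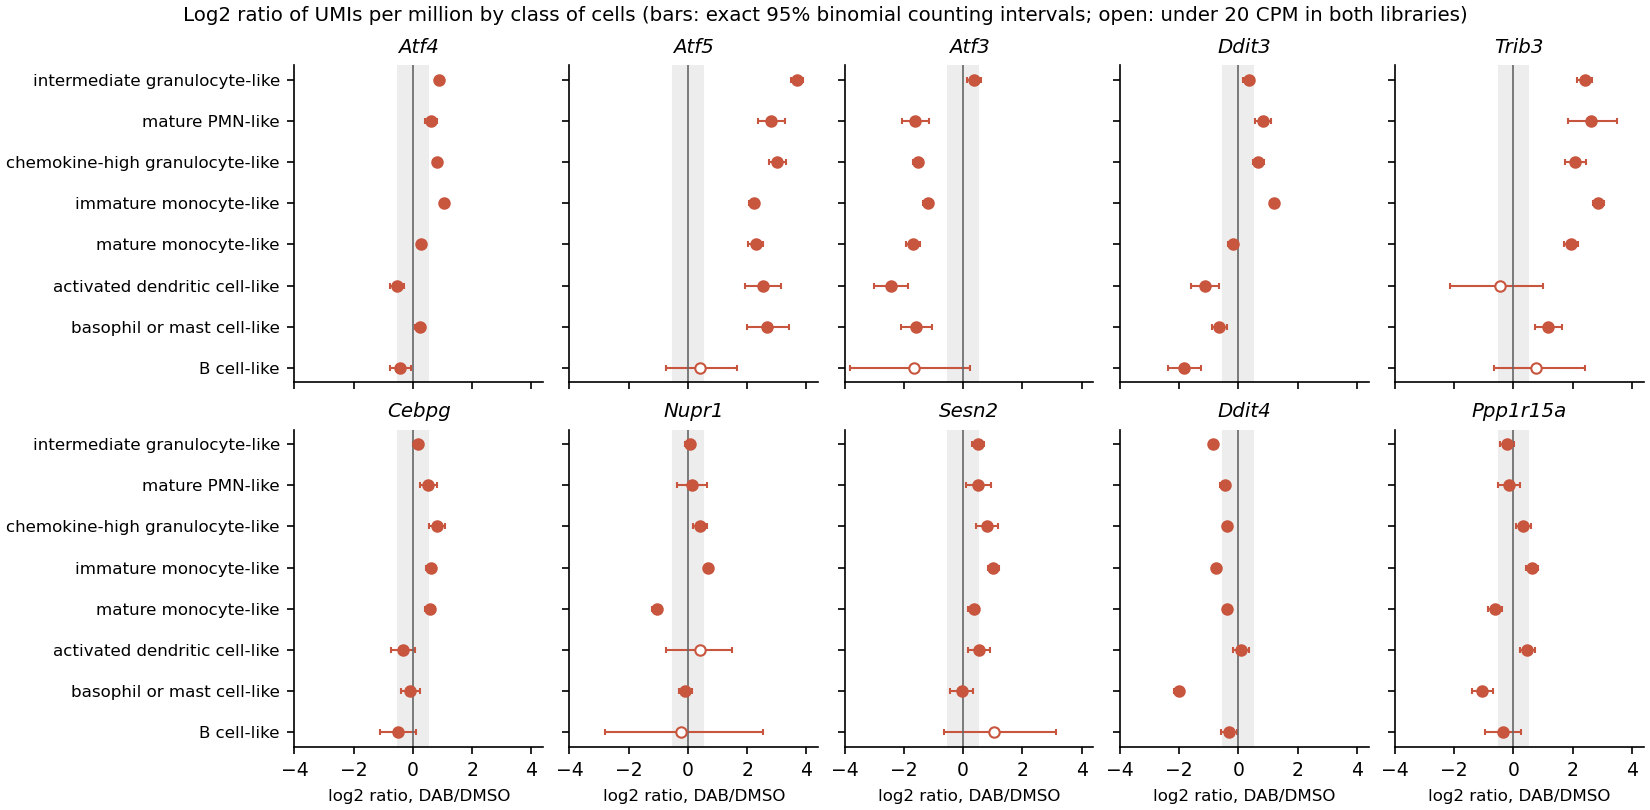
Log2 ratio of CPM, DAB over DMSO, for each member (panels) in 8 classes of cells (rows), with exact binomial counting intervals. The grey band spans ratios under 0.5 in size, and open circles mark values under 20 CPM in both libraries. Atf5 lies to the right of the band in every class except B cell-like cells, while Ddit3 ranges from 1.21 in immature monocyte-like cells to -1.82 in B cell-like cells.

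Atf5 had its lowest ratio in B cell-like cells, and in the other 7 classes, 4 of which passed through the DAB level alone, its log2 ratios ran from 2.21 in immature monocyte-like cells to 3.67 in intermediate granulocyte-like cells. In DMSO its level ran from 10.99 CPM in activated dendritic cell-like cells to 41.6 CPM in chemokine-high granulocyte-like cells, and the classes between these ends had overlapping intervals with their neighbours from 25.3 CPM down. In DAB the order was led again by chemokine-high granulocyte-like cells at 337 CPM, followed by intermediate granulocyte-like cells at 220 CPM, mature PMN-like cells at 168 CPM and immature monocyte-like cells at 117 CPM, each apart from the next by its interval. The 3 granulocyte-like classes thus stood above the monocyte-like ones in DAB. In B cell-like cells Atf5 was at 14.8 CPM from 10 UMIs in DMSO and 19.8 CPM from 21 UMIs in DAB, a difference that was not detectable at this depth.

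Trib3 reached 20 CPM in DMSO in 3 classes, with log2 ratios of 2.08 in chemokine-high granulocyte-like, 1.94 in mature monocyte-like and 1.18 in basophil or mast cell-like cells. With the 3 classes that passed through the DAB level alone, ratios ran from 1.18 in basophil or mast cell-like cells to 2.86 in immature monocyte-like cells. In the former class the ratio came from cluster 18 (12.3 and 72.1 CPM), as cluster 23 had 72.0 and 70.9 CPM, and it was -0.028 at a resolution of 0.5. In immature monocyte-like cells it had 14.2 CPM in DMSO and 103 CPM in DAB. Chemokine-high granulocyte-like cells reached a like level in DAB, 109 CPM with an overlapping interval. The gene was near its lowest in activated dendritic cell-like cells, at 4.96 CPM (14 UMIs) in DMSO and 3.59 CPM (6 UMIs) in DAB. Its log2 ratio there depended on the clustering and lay between -0.49 and 2.14 under 7 other clusterings or filters. Trib3 was low in B cell-like cells too (8.90 and 15.1 CPM). Atf5 in activated dendritic cell-like cells was at 10.99 and 63.4 CPM.

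Atf4 was called higher in 4 classes, the 3 granulocyte-like ones and immature monocyte-like cells, with log2 ratios from 0.61 in mature PMN-like cells to 1.05 in immature monocyte-like cells. It was not called in mature monocyte-like cells (192 and 232 CPM, log2 ratio 0.27) or in basophil or mast cell-like cells (216 and 255 CPM, 0.24). In the latter class the ratio lay between -0.33 and 0.81 under 7 other clusterings or filters. In activated dendritic cell-like cells Atf4 was lower in DAB, at 188 CPM in DMSO and 129 CPM in DAB. The log2 ratio there was -0.55 (-0.78 to -0.31). That direction depended on the clustering, since the ratio was 0.035 at a resolution of 0.5 and 0.029 without alignment of the libraries. B cell-like cells had 194 and 145 CPM, a log2 ratio of -0.42 (-0.77 to -0.07) that was short of a call. In DAB these 2 classes held the lowest levels of Atf4, with overlapping intervals, whereas in DMSO their levels were among the higher ones.

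Ddit3 followed Atf4 in part. It was higher in mature PMN-like cells (68.7 and 122 CPM, log2 ratio 0.83), chemokine-high granulocyte-like cells (90.2 and 144 CPM, 0.67) and immature monocyte-like cells (40.7 and 94.1 CPM, 1.21). It was lower in activated dendritic cell-like cells (65.6 and 30.5 CPM, -1.11), B cell-like cells (137 and 38.7 CPM, -1.82) and basophil or mast cell-like cells (102 and 65.5 CPM, -0.63). The last class joined 2 clusters that held different shares of its cells, and Ddit3 was higher in 1 of them (cluster 18, 60 DMSO and 385 DAB cells, 43.2 and 63.0 CPM) and lower in the other (cluster 23, 71 and 111 cells, 222 and 89.2 CPM). Under 3 other ways of clustering or filtering, the ratio of Ddit3 in this class lay between 0.15 and 0.27.

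Atf3 was lower in DAB in 6 of the 7 classes in which it passed, with log2 ratios from -1.18 in immature monocyte-like cells to -2.42 in activated dendritic cell-like cells. It passed through its DMSO level alone in mature PMN-like, mature monocyte-like, activated dendritic cell-like and basophil or mast cell-like cells, which favours a lower call. In immature monocyte-like and chemokine-high granulocyte-like cells it passed in both libraries. Chemokine-high granulocyte-like cells had the highest class level of Atf3 in both libraries, at 172 CPM in DMSO and 59.8 CPM in DAB. The exception was the intermediate granulocyte-like class, at 22.9 and 29.4 CPM with a log2 ratio of 0.36. That class joined cluster 2 (989 DMSO and 691 DAB cells), where Atf3 had a ratio of -0.10, and cluster 7 (829 and 194 cells, led by Camp, Ltf and Ngp), where it was higher at 1.05. The ratio in immature monocyte-like cells was 0.068 when the libraries were clustered without alignment.

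Ddit4 was called lower in intermediate granulocyte-like cells (296 and 164 CPM, log2 ratio -0.85), immature monocyte-like cells (124 and 73.8 CPM, -0.74) and basophil or mast cell-like cells (355 and 87.9 CPM, -2.01). The first of these joined cluster 2, where Ddit4 was not called (210 and 158 CPM, -0.41), and cluster 7 (376 and 180 CPM, -1.07). In the last class it was lower within both clusters, at 146 and 57.7 CPM in cluster 18 and at 785 and 375 CPM in cluster 23. In activated dendritic cell-like cells it was at 106 and 112 CPM, a log2 ratio of 0.08 (-0.19 to 0.35). Sesn2 was higher in 5 classes, most in immature monocyte-like cells (19.8 and 40.2 CPM, 1.02), and also in activated dendritic cell-like cells (48.2 and 69.9 CPM, 0.54), which held its highest class level, apart from the next class by its interval in DAB but not in DMSO.

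Cebpg, not called over all cells, was called higher in 4 classes: mature PMN-like (63.4 and 91.5 CPM, log2 ratio 0.53), chemokine-high granulocyte-like (47.5 and 82.8 CPM, 0.80), immature monocyte-like (46.0 and 69.5 CPM, 0.60) and mature monocyte-like cells (47.3 and 70.7 CPM, 0.58). Nupr1 was higher in immature monocyte-like cells (74.2 and 118 CPM, 0.67) and lower in mature monocyte-like cells (93.1 and 44.7 CPM, -1.06). Ppp1r15a split in the same way, at 22.5 and 34.8 CPM (0.63) in immature and 33.5 and 21.7 CPM (-0.63) in mature monocyte-like cells. The 2 genes with small ratios over all cells thus had ratios of opposite sign in these 2 classes. Ppp1r15a was at its highest class level in activated dendritic cell-like cells, at 97.2 CPM in DMSO, where the interval overlapped that of B cell-like cells, and 135 CPM in DAB, where it stood apart from the next class.

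In 20 clusters, named or not, both libraries had 100 cells or more. The share of all genes called higher ran from 8.19% to 25.5% over these clusters and that of genes called lower from 7.34% to 18.1%. A low gene could pass through its DAB level alone, so Atf5 and Trib3 are counted here by the clusters in which they reached 20 CPM in DMSO. Atf5 did so in 15 clusters and was higher in DAB in 15 of them, and Trib3 in 5, with a higher level in 5. Over all 20 clusters the lowest log2 ratio was 0.42 for Atf5 (cluster 19, the B cell-like one) and -0.47 for Trib3 (cluster 22, the activated dendritic cell-like one). That Trib3 ratio came from 14 UMIs in DMSO and 6 UMIs in DAB. Atf4 was higher in 16 of 20 and lower in 1, Ddit3 higher in 14 and lower in 2, Sesn2 higher in 13 of 19, and Cebpg higher in 11 of 20. Atf3 was lower in 10 of 17 and higher in 1, and Ddit4 was lower in 10 of 20 and higher in 1. In some clusters, among them the mature monocyte-like and activated dendritic cell-like ones, Atf3 passed through its DMSO level alone, which favours a lower call. Nupr1 was higher in 6 of 18 and lower in 1, and Ppp1r15a higher in 4 of 19 and lower in 1. Among the clusters at 20 CPM in DMSO, Ddit3 was higher in 13 of 19, Sesn2 in 11 of 17, Nupr1 in 6 of 17 and Ppp1r15a in 3 of 17.

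The range over clusters within a library also differed between members. Atf4 spanned 2.43-fold over the clusters in DMSO (84.7 to 206 CPM) and 2.67-fold in DAB (129 to 343 CPM). Cebpg spanned 2.41-fold and 2.21-fold. These are narrow ranges beside those of Atf3, which spanned 20.5-fold in DMSO and 33.8-fold in DAB, and Trib3, which spanned 9.18-fold in DMSO and 57.4-fold in DAB. Cluster 17, led by the granule genes Elane, Prtn3, Ctsg and Mpo and left unnamed, had the highest Atf4 and Trib3 of the 20 clusters in both libraries, with Trib3 at 45.6 CPM in DMSO and 206 CPM in DAB. Cluster 12, the chemokine-high granulocyte-like cluster with the fewest UMIs per cell (medians of 2311 and 3246), had the highest Atf3 and Ddit3 in both, with Ddit3 at 182 and 283 CPM.

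**Figure D3:**
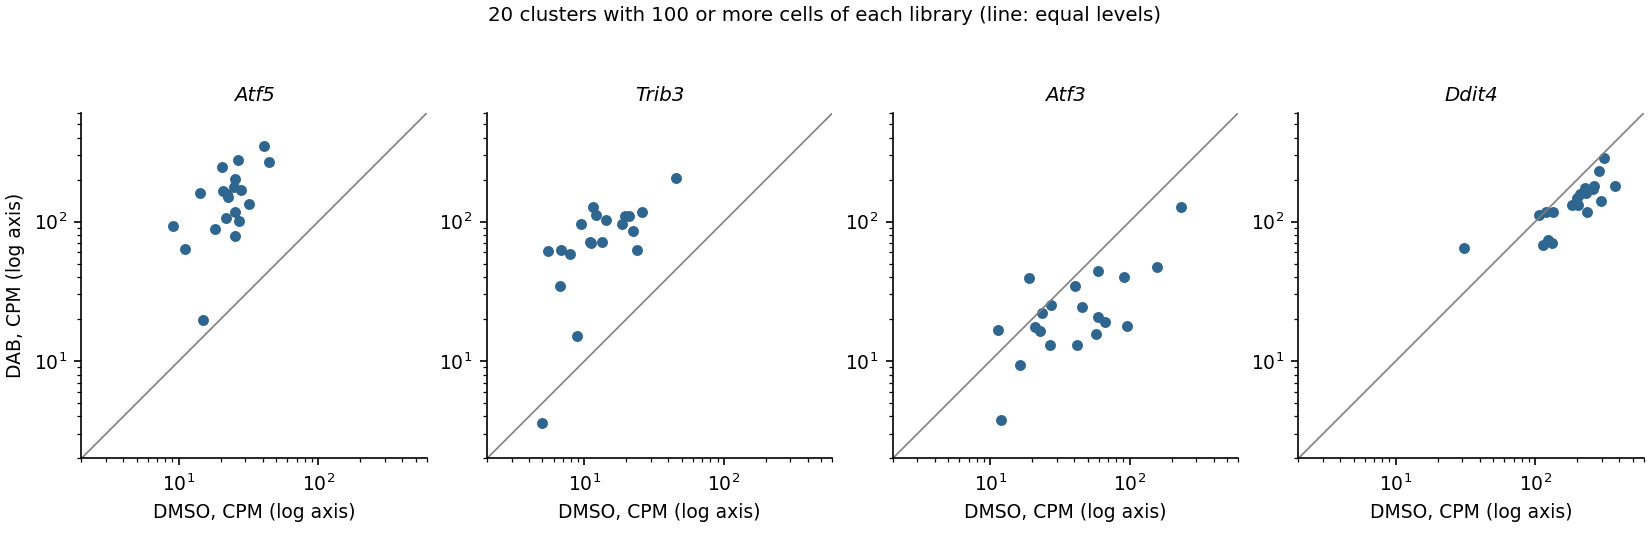
Level of 4 members in 20 clusters, in CPM, with DMSO on the horizontal and DAB on the vertical log axis. Each point is 1 cluster and the line marks equal levels. Points for Atf5 and Trib3 lie above the line except 1 for Trib3 (3.59 CPM in DAB), and most points for Atf3 and Ddit4 lie below it.

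In single cells thinned to 3000 UMIs each (7426 DMSO and 8965 DAB cells, with 1606 and 1511 shallower cells left out), the share of cells with a UMI was higher in DAB for 7 members, with intervals that did not overlap. No such count was made over all genes, so it cannot be read as particular to the members. The cells left out were spread unevenly over the classes. Of mature PMN-like cells 253 of 578 in DMSO and 917 of 1566 in DAB were kept. Of chemokine-high granulocyte-like cells 243 of 387 and 1493 of 1873 were kept, and of immature monocyte-like cells 1227 of 1249 and 531 of 546. Values over all thinned cells therefore hold a smaller part of the shallow granulocyte-like cells. Atf5 was found in 5.99% (5.46 to 6.56) of DMSO cells and 34.3% (33.3 to 35.3) of DAB cells. Trib3 was found in 3.69% (3.27 to 4.14) of DMSO cells and in 1795 of the 8965 DAB cells (19.2 to 20.9%). Ddit4 and Atf3 had lower shares in DAB, from 36.8% to 28.0% and from 11.6% to 7.31%, and Ppp1r15a had overlapping intervals at 9.36% in DMSO and 10.4% in DAB. Without thinning the shares of Atf5 were 15.9% and 61.4% and those of Trib3 10.3% and 44.9%. Free RNA can give UMIs in cells that do not express a gene. B cell-like cells are given beside this, although whether they express these genes was not tested. Thinned to the same depth, they held Atf5 in 3.26% (3 of 92) of DMSO and 5.52% (8 of 145) of DAB cells. They held Trib3 in 2.17% and 3.45%, and Nupr1 in 0 of 92 and 0 of 145, which allow shares of up to 3.26% and 2.07%. The part of free RNA in the shares of either library was not tested.

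At the same depth, UMIs of 1.48 members were found on average in a DMSO cell (SD 1.25 over cells) and of 2.19 in a DAB cell (SD 1.43). Cells without any member made up 23.9% of the DMSO and 10.3% of the DAB library, and cells with 4 or more made up 6.83% and 17.6%. Chemokine-high granulocyte-like cells had the highest mean in DAB, 2.79 members against 1.82 in DMSO, with 4 or more members in 31.5% and 11.9% of cells. Immature monocyte-like cells had means of 1.36 and 2.28. In activated dendritic cell-like cells the means were near each other, at 1.57 and 1.58, and in B cell-like cells the DAB mean was lower, at 1.73 and 1.15.

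**Figure D4:**
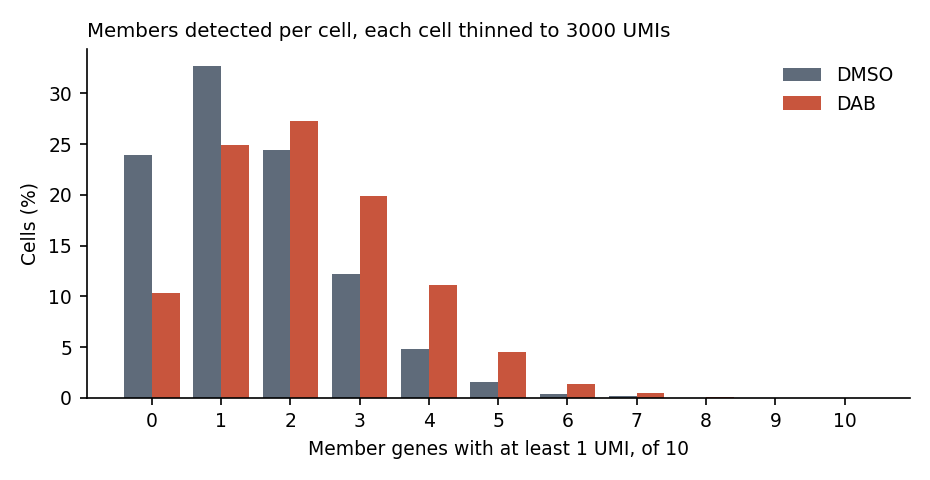
Share of cells, in percent, by the number of the 10 members with at least 1 UMI, after each cell was thinned to 3000 UMIs. Cells under 3000 UMIs are left out. The DAB bars are shifted to higher numbers, with no member found in 10.3% of DAB and 23.9% of DMSO cells.

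Other genes of the pathway give the setting of these values. Of 40 listed ATF4 target genes 33 passed 20 CPM, and 28 of them were higher in DAB and 1 was lower (median log2 ratio 1.27). Of all genes that passed, 11.6% were higher and 11.2% lower. Of the 28, Cth, Stc2, Chac1, Psph, Shmt2, Aldh18a1, Pycr1, Slc7a1 and Wars passed through their DAB level alone, which favours a higher call, and the median includes them. The list was chosen with earlier results of these data known, so its counts beside those of all genes are a description only. The highest ratios were those of Cth, which makes cysteine from cystathionine (0.23 CPM from 21 UMIs in DMSO and 33.2 CPM in DAB, 7.19), Stc2, a secreted stress glycoprotein (5.63 and 56.1 CPM, 3.32), Chac1, which degrades glutathione (4.04 and 27.9 CPM, 2.79), and Asns, which makes asparagine (25.4 and 129 CPM, 2.34). The lowest were those of Vegfa (161 and 83.3 CPM, -0.95) and Got1 (38.1 and 38.9 CPM, 0.03). In the classes, the list's median ran from 1.92 in intermediate granulocyte-like cells (26 higher and 2 lower of 31) to -0.10 in B cell-like cells (4 and 4 of 27), with 0.26 in activated dendritic cell-like cells (8 and 5 of 19). The classes in which Atf4 was not called higher therefore included the 2 with the lowest medians of its targets. They also included mature monocyte-like cells, with a median of 1.18 (23 and 2 of 31), and basophil or mast cell-like cells, with 1.02 (20 and 3 of 30). In the last of these classes the Atf4 ratio depended on the clustering.

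**Figure D5:**
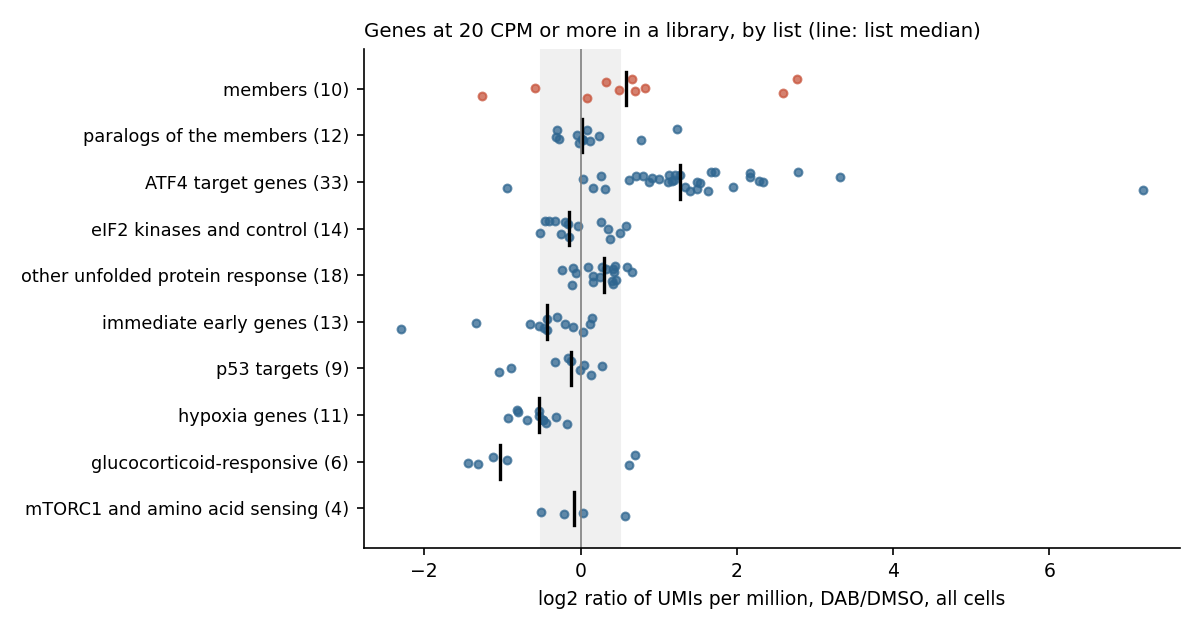
Log2 ratio of CPM over all cells, DAB over DMSO, for the genes of each list that reached 20 CPM (number in brackets). Points are genes, black lines are list medians and the grey band spans ratios under 0.5 in size. The ATF4 target genes center at 1.27 and the members at 0.58, and the hypoxia and glucocorticoid lists at -0.53 and -1.03.

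Relatives of the members by family mostly stayed in the band of small ratios: of 18 listed paralogs 12 passed, 2 were higher and 0 lower, with a median of 0.02. The 2 were Jdp2, a repressor of the AP-1 family (43.7 and 103 CPM, 1.24), and Cebpe, a factor of granulocyte maturation (45.2 and 77.2 CPM, 0.77). The other 10 were Atf1 (0.08), Atf2 (-0.04), Atf7 (-0.27), Atf6 (0.02), Atf6b (0.24), Creb1 (-0.03), Cebpb (-0.31), Cebpd (0.12), Sesn1 (-0.30) and Ppp1r15b (0.03). Ppp1r15b, the constitutive counterpart of Ppp1r15a, was at 60.0 and 61.3 CPM. Cebpa, Trib1, Trib2, Nupr1l, Sesn3 and Ddit4l were under 20 CPM in both libraries.

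Among 14 passing genes of the eIF2 kinases and the control of eIF2, 2 were higher and 1 was lower, with a median of -0.15. The higher ones were Denr, a factor of translation re-initiation (65.5 and 98.3 CPM, 0.59), and Eif2s1, which encodes eIF2α itself (78.6 and 112 CPM, 0.51). Eif2a was lower (48.6 and 33.9 CPM, -0.52), and Eif2s2 (0.38), Gcn1 (0.35) and Eif2ak3, the gene of PERK (21.6 and 15.7 CPM, -0.46), were not called. Of 18 passing genes of the other unfolded protein response arms 2 were higher, Manf (154 and 244 CPM, 0.66) and Dnajb11 (51.1 and 77.2 CPM, 0.60), and 0 lower, with a median of 0.30. Hyou1 (0.45) and Hspa5, the chaperone BiP (334 and 453 CPM, 0.44), were not called, and Xbp1 (-0.24) and Dnajb9 (-0.11) had the lowest ratios. Over all cells the medians of both lists lay below that of the ATF4 targets. The unfolded protein response list differed by class. In intermediate granulocyte-like cells 11 of 18 were higher and 1 lower (median 0.647), against 21.8% and 13.2% of genes. In chemokine-high granulocyte-like cells 0 of 19 were higher and 6 lower (median -0.315), against 8.20% and 12.1%. In each other class at most 3 were higher and at most 3 lower.

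Other lists held genes of inputs known to reach Atf3, Ddit4 or Sesn2. Of 13 passing immediate early genes 0 were higher and 4 lower (median -0.42), with Fos at 38.1 and 7.75 CPM (-2.30) and Zfp36 at 158 and 62.6 CPM (-1.33) lowest, and Jund (0.14), Klf6 (0.12), Ier2 (0.04) and Ier3 (-0.10) at the other end. Of 11 hypoxia genes 0 were higher and 6 lower (median -0.53), with Ankrd37 at 181 and 95.2 CPM (-0.93) and Egln3 at 582 and 331 CPM (-0.82) lowest, and Slc2a1 (-0.17), Pfkfb3 (-0.31), P4ha1 (-0.44) and Bnip3 (-0.48) highest. Of 6 glucocorticoid-responsive genes 2 were higher, Fkbp5 (33.5 and 54.2 CPM, 0.69) and Sgk1 (17.5 and 27.0 CPM, 0.63), and 4 were lower, Tsc22d3 (-0.95), Per1 (-1.12), Errfi1 (-1.31) and Mt2 (222 and 82.3 CPM, -1.43). By the limit for a call, 9 of the 13 immediate early genes and 5 of the 11 hypoxia genes were not called. Over all cells, all 11 hypoxia genes that passed had ratios below 0, and 54.5% of them were called lower, against 11.2% of all genes that passed. By class, 1 of 11 was lower in mature PMN-like cells (8.17% of all genes) and 1 of 10 in immature monocyte-like cells (14.8%). The count was 2 of 10 in chemokine-high granulocyte-like (12.1%) and 9 of 11 in basophil or mast cell-like cells (24.7%). It was 5 of 11 in intermediate granulocyte-like (13.2%) and 7 of 11 in mature monocyte-like cells (18.1%). It was 5 of 10 in activated dendritic cell-like (16.5%) and 4 of 11 in B cell-like cells (10.3%). Of the listed genes under 20 CPM in both libraries, P4ha2 (9.88 and 19.0 CPM) was at 0.95, Car9 at -0.24 and Adm at -2.18. Ero1l was chosen for the hypoxia list under its other name Ero1a and so was counted only among the ATF4 targets, at 0.16 (1244 and 1389 CPM). In activated dendritic cell-like cells, where Atf3 had its lowest ratio, 3 of 10 immediate early genes were higher and 1 lower (median 0.04). Every other class had more of these genes lower than higher. In intermediate granulocyte-like cells, where Atf3 was not called, 1 of 13 was higher and 8 lower. None was higher in chemokine-high granulocyte-like (7 of 17 lower), basophil or mast cell-like (7 of 12) and mature monocyte-like cells (5 of 13). The same held in mature PMN-like (4 of 14) and immature monocyte-like cells (3 of 14), while B cell-like cells had 2 higher and 3 lower of 15. The part of these genes in the members' values was not tested. Of 9 p53 targets 0 were higher and 2 lower, Pmaip1 (-1.04) and Trp53inp1 (-0.89), with a median of -0.13, while Bax (0.27), Ei24 (0.13), Cdkn1a (608 and 626 CPM, 0.04) and Mdm2 (-0.0011) had the highest ratios. Some genes called lower in these lists passed 20 CPM through their DMSO level alone, which favours a lower call. They were Fos, Egr2, Pfkfb4, Per1, Pmaip1 and Trp53inp1. Sgk1 passed through its DAB level alone, which favours a higher call. Of 4 genes of mTORC1 and amino acid sensing Rheb was higher (85.5 and 127 CPM, 0.57), Bmt2 lower (47.5 and 33.5 CPM, -0.50), and Rptor (0.04) and Mtor (-0.21) were not called.

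Patterns over 40 points, the 20 clusters in each of the 2 libraries, were compared by Pearson's r of log2(CPM + 10) as a description; the points of a library share its depth and treatment, so a gap between libraries raises r. The genes most like Trib3 were 3 of the ATF4 target list, Asns (r = 0.94), Stc2 (0.91) and Cth (0.88). Asns was also near Atf4 (0.85), beside Tbpl1 (0.85) and Krtcap2 (0.81), and near Atf5 (0.79), beside Igfbp6 (0.90) and Cyb5r1 (0.84). Ddit3 was most like Derl1 (0.78), Sqstm1 (0.76) and Eif5 (0.76), and Cebpg most like Bid (0.81), Rab28 (0.75) and Fgfr1op2 (0.75). The other members had these neighbours. They were Aph1c (0.76), Fnip2 (0.75) and Mroh1 (0.74) for Atf3, Filip1l (0.83), Rnf167 (0.74) and Ulk1 (0.73) for Ddit4, and Mreg (0.87), Gpbp1 (0.84) and Tnfaip3 (0.78) for Ppp1r15a. For Nupr1 they were Ccn3 (0.82), Ifitm6 (0.80) and Rab3d (0.78), and for Sesn2 they were Fmnl1 (0.81), Slco3a1 (0.81) and Actn1 (0.79).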

How the data were processed

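The 10 members and the gene lists beside them were chosen with earlier results of these data known. Per the study's methods and the labels, the authors aligned the reads of both libraries to the mm10 transcriptome with Cell Ranger 7.0.0 and deposited raw UMI counts per gene and barcode. These are whole numbers that were not normalized, and they still hold barcodes over the mitochondrial limit of the study. From those counts, 55 DMSO and 89 DAB barcodes were dropped for a mitochondrial share over 10%, a limit of 4 median absolute deviations removed none, and 768 and 1066 barcodes scored as doublets against simulated ones were removed. Pearson residuals of 3000 variable genes, without the listed genes, were reduced to 40 components, aligned by mutual nearest neighbours (k = 20) and clustered with Leiden at resolution 0.9 (leidenalg 0.10.2, igraph 0.11.9, scikit-learn 1.9.0, scipy 1.17.1 and numpy 2.4.6 under Python 3.11.15). This code stands in for the Seurat steps of the study, so classes need not match the study's.

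A cluster was named when at least 3, and more than 50%, of a class's detected markers were raised in it. Raised meant a log2 fold of at least 1. The cluster's 10 leading genes also had to hold no more markers of another class. Granulocyte classes carried a further condition, that the cluster exceed the remaining cells in Csf3r or in S100a8. Clusters 17 and 26 were left unnamed on this last point. Altogether 14 clusters stayed unnamed (44.4% of DMSO and 40.1% of DAB cells). UMIs were summed per library and class (92521869 DMSO and 139660995 DAB UMIs in all) and given as CPM with exact Poisson intervals, and log2 ratios with exact conditional binomial intervals. The log2 ratios, their intervals and the calls were tested on simulated Poisson counts of whole libraries, while clustering, naming and thinning were not. Named genes were all members and paralogs, the 4 highest and 2 lowest ratios of each other list, and the 3 genes most like each member. Genes that lead a cluster, overlap a member, define the labelled cells or mark a limit of a list were named beside these. Coordinates are from GENCODE M21 (GRCm38).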

Additional observations from a re-analysis of the deposited data

Results flagged for a closer look

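For 4 members the ratio of DAB to DMSO was called higher in 1 class of cells and lower in another, and the difference between the classes was not tested, since there is 1 library per condition. Atf4 had a log2 ratio of 1.05 in immature monocyte-like cells and -0.55 in activated dendritic cell-like cells, the latter near 0 under 2 other clusterings. Ddit3 had 1.21 in immature monocyte-like cells and -1.82 in B cell-like cells. Nupr1 had 0.67 in immature monocyte-like cells and -1.06 in mature monocyte-like cells. Ppp1r15a had 0.63 in immature monocyte-like cells and -1.06 in basophil or mast cell-like cells, a class of 131 DMSO and 496 DAB cells. That class joins 2 clusters with ratios of -0.26 (cluster 18, not called) and -0.75 (cluster 23), and under 7 other clusterings or filters its ratio lay between -0.75 and -0.37.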

How the results depend on the processing

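No paired analysis was possible because each condition has 1 library. Over all cells, 8 other ways of filtering, scaling, weighing or choosing cells kept the sign of each member's ratio. Among them the settings without the clusters led by noncoding RNA and without barcodes held by both libraries were chosen after seeing the data, and both left 5 members higher and 2 lower. With a log2 ratio of at least 1 asked for, 2 members were higher and 1 lower, and with named myeloid cells only 1 was lower, Ddit4 being at -0.48. Ratios within classes depended more on the clustering. Without alignment of the libraries Atf3 in immature monocyte-like cells was at 0.068, leaving 1 member lower there, and Atf4 in activated dendritic cell-like cells was at 0.029, against 0.035 at resolution 0.5; both settings gave 4 members higher in that class. In basophil or mast cell-like cells Trib3 was at -0.028 at resolution 0.5, and Ddit3 at 0.15 at resolution 1.5, 0.20 with the listed genes kept and 0.27 without doublet removal; members higher there numbered 1 to 4 and lower 2 under these settings or without alignment. Members lower numbered 2 in mature PMN-like cells under 5 settings, 2 or 0 in chemokine-high granulocyte-like cells under 3, 5 in mature monocyte-like cells at resolution 1.5, and 2 in B cell-like cells under 3, with 2 higher without doublet removal. Over the 7 other clusterings or filters, Atf4 in basophil or mast cell-like cells lay between -0.33 and 0.81. Trib3 in activated dendritic cell-like cells lay between -0.49 and 2.14 over the same settings. The cause of these shifts was not tested. The mean number of members per cell was 2.99 in DMSO and 4.50 in DAB without thinning, 0.87 and 1.28 at 1500 UMIs, and 2.08 and 3.12 at 5000 UMIs. The 7 members with a higher share of cells became 8 without thinning and 6 at 1500 UMIs. Of the 30 genes named as most like a member, 25 and 21 were named again with pseudocounts of 1 and 50. Classes of under 200 cells in a library (activated dendritic cell-like, basophil or mast cell-like, B cell-like) have the widest intervals.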

Other observations

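Cluster 21, led by Pf4, Ppbp, Ccl7 and the complement genes C1qa, C1qb and C1qc and left unnamed because too few markers were raised (166 DMSO and 125 DAB cells), had 9 members higher in DAB and 1 lower, where 12.5% of the 5740 genes that passed were higher and 13.3% lower. It was the only one of the 20 clusters in which Ddit4 was called higher, at 30.9 CPM in DMSO and 65.1 CPM in DAB (log2 ratio 1.08), while Atf3 was lower there at 59.4 and 20.6 CPM (-1.53). Its Trib3 ratio was the highest of the 20 clusters, at 5.45 and 61.9 CPM (3.51), and Ppp1r15a (17.0 and 41.9 CPM, 1.31), Nupr1 (53.9 and 112 CPM, 1.06) and Sesn2 (11.5 and 28.4 CPM, 1.30) had their highest ratios there too. Trib3, Ppp1r15a, Sesn2 and Atf5 (9.09 CPM in DMSO) passed 20 CPM in cluster 21 through their DAB level alone. Cluster 6, led by the stefin genes Stfa1, Stfa2 and Stfa3, had the highest Ddit3 ratio (16.8 and 56.4 CPM, 1.75).

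Over the 20 clusters, some members tracked each other differently in the 2 libraries, given here as a description with no test. Atf4 and Nupr1 had r = -0.35 in DMSO and 0.83 in DAB, and Atf4 and Ppp1r15a had 0.55 in DMSO and -0.43 in DAB. Atf4 and Trib3 had 0.44 and 0.86, and Trib3 and Nupr1 0.44 and 0.83. Ddit3 and Ppp1r15a had 0.75 in DMSO and 0.35 in DAB. These pairs were picked out of all pairs of the 10 members. Nupr1 was low in the activated dendritic cell-like (6.4 CPM in DMSO and 8.4 CPM in DAB) and B cell-like clusters (4.5 and 3.8 CPM). Atf4 was there at 188 and 129 CPM and at 194 and 145 CPM. The part of these 2 clusters in the values of r was not tested.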
